A study of Zea mays with 303 samples.

Results

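Among fixed single cells of maize anthers, 68 cells were rich in nuclear transcripts for photosynthesis. They were 26.5% (21.2 to 32.3%) of the cells with at least 500 features detected, which numbered 48, 70, 60 and 79 in the 4 library pools and are called retained here. They were chosen from their own counts: the unique molecular identifiers (UMIs, tags that count captured transcript copies) of CAB1, RBCS and PSAH had to sum to at least 3 and to at least 1000 CPM (counts per 1000000 UMIs of the cell). They were set against the 52.9% of retained cells with no UMI of these 3 genes, called marker-free here. The other 53 cells, with some marker UMIs but too few for the rule, are called intermediate. The levels of the 3 genes are therefore a description of the choice and not a result, and all other features were compared. Outside the 3 genes, the rich cells held more of each of 23 features whose symbols belong to the plastid genome alone, with 5.73% of their UMIs against 1.22% in the marker-free cells. They also held more of PSBQ1, a nuclear photosystem gene that the choice did not use. They held less of C2, the gene of chalcone synthase, and of GAPC3, the gene of a cytosolic glycolytic enzyme. A few of the marker-free cells held most of the C2 and GAPC3 UMIs found in marker-free cells.

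All cells came from early meiotic anthers, the pollen-forming organs, of greenhouse-grown plants of the inbred W23 carrying the allele bz2. The anthers were fixed in Farmer's solution, which contains ethanol and acetic acid, and taken apart with wall-digesting enzymes before the cells were sorted on a BioSorter or a Hana instrument. Libraries followed a modified CEL-Seq2 protocol, and the titles place the cells in library pools numbered 6, 11, 28 and 29. Every cell belongs to the same group, with no plant, anther or sorter named for it, so there were no replicates and no test was made. The pools were treated as batches, and the labels do not say whether they differ in more than the library index. A feature was called higher or lower only where its direction was the same in each pool. Intervals are exact 95% intervals, of the Poisson kind for CPM and of the Clopper-Pearson kind for shares, and they cover counting error only. Cells had a median of 1780 UMIs and at most 9934, and 46 cells had fewer than 500 features. Pools reused barcode numbers, with 91 of 96 numbers seen in at least 2 pools, but no pair of cells had identical counts.

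Photosynthesis needs genes in both the nucleus and the plastid. CAB1 is a chlorophyll a/b-binding protein of the light-harvesting antenna, RBCS is the small subunit of Rubisco, the enzyme that fixes carbon dioxide, and PSAH is a subunit of photosystem I, and all of these are nuclear genes whose proteins are imported. The plastid genome encodes core photosystem proteins, subunits of the ATP synthase and of the NDH complex, and parts of the plastid's own RNA polymerase and ribosomes. In anthers, chloroplasts are known from the endothecium, a layer of the wall beneath the epidermis.

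The rich cells were found in every pool. Pool 6 held 8 among its 48 retained cells (16.7%, 7.48 to 30.2%), and pool 11 held 19 of 70 (27.1%, 17.2 to 39.1%). In pool 28 there were 17 of 60 (28.3%, 17.5 to 41.4%), and in pool 29 there were 24 of 79 (30.4%, 20.5 to 41.8%). The intervals of the 4 shares overlapped. The marker-free cells numbered 34, 33, 33 and 36 in the same order of pools.

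Rich cells were deeper than marker-free cells. They held 698 to 9934 UMIs with a median of 3264.5, against 591 to 8944 with a median of 1620.5. Pool 6 had medians of 5815 UMIs in rich and 2926 in marker-free cells, and pool 11 had 4542 and 2324. Medians in pool 28 were 1565 and 1260, and those in pool 29 were 3616.5 and 1402. A cell with few UMIs can lack the 3 genes because few of its transcripts were sampled. Of the marker-free cells, 31 held at least 3000 UMIs, a depth at which a count of 0 allows fewer than 1000 CPM. How much of the difference in depth comes from the rule itself was not tested.

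The 68 rich cells held 1165 UMIs of the chosen genes. CAB1 gave 807 of them (3076 CPM, 2867 to 3296) and was found in all 68 cells. RBCS, at 1025 CPM (906 to 1155), was found in 58 cells, and PSAH, at 339 CPM (272.4 to 417.4) from 89 UMIs, in 45. All 3 genes were seen in 39 cells, 2 in 25 cells and 1 in 4 cells. CAB1 and RBCS have close copies in the maize genome, and the sources used here do not give how reads shared between copies were counted.

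The summed level of the 3 genes differed between pools within the rich cells. In pool 6 it ran from 1258 to 4115 CPM per cell with a median of 1985, and in pool 11 from 1245 to 5888 with a median of 3563. In pool 28 it ran from 1161 to 15332 CPM with a median of 6831, and in pool 29 from 1038 to 11868 with a median of 7517. The ranges of all pools overlapped, and the medians of pools 28 and 29 lay above the highest cell of pool 11. The make-up of these UMIs was closer between pools than their level, with CAB1 at 68.9%, 67.9%, 74.1% and 68.4% of them in pools 6, 11, 28 and 29. At the border of the rule, the lowest cells inside had 1038, 1161 and 1243 CPM, from 6, 3 and 10 UMIs. The highest cells outside with at least 3 UMIs had 983, 903 and 885 CPM, and a further 7 cells passed 1000 CPM on fewer than 3 UMIs. The minimum of UMIs thus asked for a higher CPM in shallow cells, and its part in the levels by pool was not tested.

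**Figure D1:**
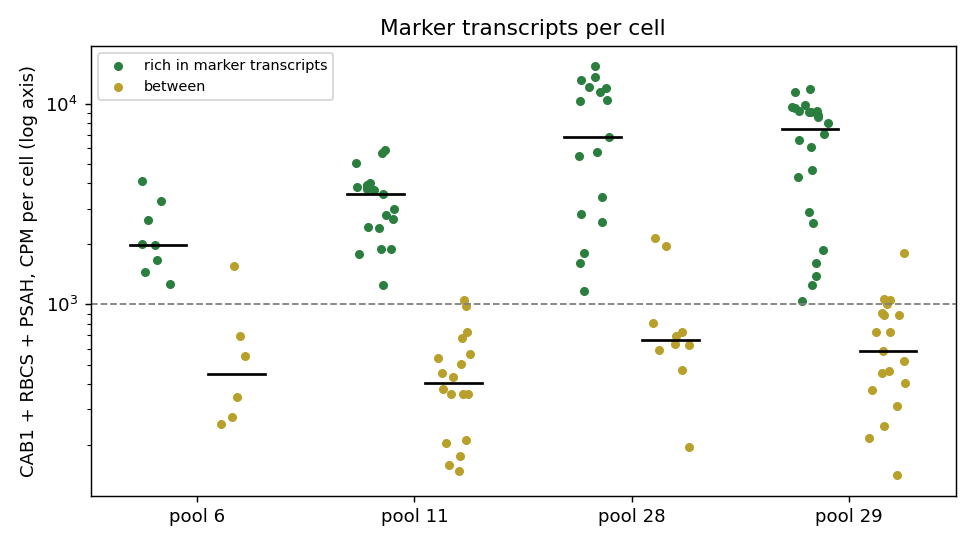
Summed level of CAB1, RBCS and PSAH in each rich and each intermediate cell, in CPM of the cell's UMIs on a log axis, by library pool (6, 11, 28, 29). Each point is 1 of the 68 rich or 53 intermediate cells, and a dashed line marks 1000 CPM. Each bar is the median of 1 kind of cell in a pool, which in rich cells was 1985, 3563, 6831 and 7517 CPM.

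Each of the 3 genes was also measured in cells chosen by the other 2 genes alone, so that it had no part in choosing those cells. RBCS stood at 1082 CPM (953 to 1223) in the 63 cells chosen on CAB1 and PSAH, against 6.17 CPM (0.747 to 22.3, 2 UMIs) in the cells without a UMI of either. PSAH stood at 341 CPM (272.6 to 421) in 65 cells chosen on CAB1 and RBCS, against 6.17 CPM, again 2 UMIs, in the cells without either. CAB1 stood at 3842 CPM (3529 to 4176) in 34 cells chosen on RBCS and PSAH, against 177.2 CPM (140.7 to 220.2). The log2 folds, with 10 CPM added to both sides here and throughout, were 6.08 for RBCS, 4.44 for PSAH and 4.36 for CAB1, with counting intervals of the plain ratio of 5.59 to 10.51, 3.89 to 8.86 and 4.10 to 4.79. Within pools 6, 11, 28 and 29 the fold of CAB1 was 4.35, 3.73, 4.53 and 4.18. Each gene was thus high in cells that the other 2 had chosen. The 3 genes were picked together with earlier results of these data known, so these folds describe the choice and support nothing further. CAB1 still had a UMI in 39 cells that lacked the other 2 genes, whereas RBCS and PSAH each had one in 2 such cells. These sets of cells differed in size, and CAB1 had the most UMIs of the 3 genes. Whether CAB1 was expressed apart from the others was not tested.

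Plastid-encoded transcripts, 23 features that carry the symbol of a plastid gene, were higher in the rich cells of each pool. How well transcripts of the plastid are captured by a method that primes on poly(A) tails was not measured, so only the same features are compared between cells. In pool 6 they made up 3.20 to 10.1% of the UMIs of a rich cell with a median of 8.37%, against 0 to 7.04% with a median of 1.30% in marker-free cells. In pool 11 the range was 1.78 to 12.4% with a median of 7.72%, against 0.221 to 10.6% with a median of 1.17%. In both pools the median of the rich cells lay above nearly all marker-free cells, but the ranges overlapped.

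Pools 28 and 29 had lower shares in both kinds of cell. In pool 28 rich cells ran from 0.855 to 6.26% with a median of 3.23%, and marker-free cells from 0.137 to 2.71% with a median of 0.714%. In pool 29 rich cells ran from 0.900 to 6.29% with a median of 3.21%, and marker-free cells from 0.111 to 1.68% with a median of 0.981%. The cells of the 2 kinds overlapped in every pool. In all, 36 of the 68 rich cells lay above every marker-free cell of their pool: 7 of 8, 3 of 19, 9 of 17 and 17 of 24 by pool.

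Summed over cells, the share was 5.73% (5.64 to 5.82%) in rich and 1.22% (1.18 to 1.26%) in marker-free cells, a log2 ratio of 2.23. Among marker-free cells, 1 reached the median of the rich cells of its pool. It was a cell of pool 11 with 998 UMIs, of which 1 came from PSBQ1. At the other end, 3 rich cells, all in pool 29, lay at or below the median of the marker-free cells there. Intermediate cells had medians of 1.34%, 1.36%, 0.943% and 0.785% in pools 6, 11, 28 and 29, and 1.34% when summed, close to the marker-free cells.

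**Figure D2:**
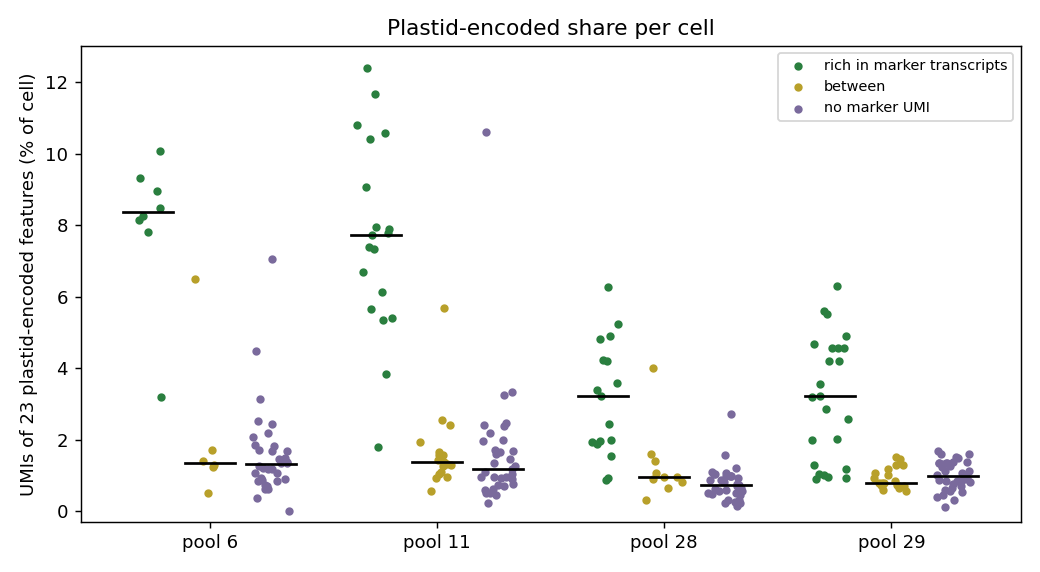
Share of each cell's UMIs from 23 plastid-encoded features, in percent, by pool, for rich, intermediate and marker-free cells. Each point is a cell and each bar is a median, which in rich cells was 8.37, 7.72, 3.23 and 3.21% in pools 6, 11, 28 and 29.

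A feature was called higher or lower when its log2 fold between the summed cells reached 1 or −1 and its direction was the same in all 4 pools. Among the 2018 features with at least 50 UMIs, 10.2% were called higher and 18.8%, or 380 features, lower. Among the 5912 features with at least 20 UMIs, 6.04% were called higher and 15.6% lower. The median log2 fold of the 2018 was −0.59, so a typical feature took a smaller share of the UMIs in rich cells. With totals taken without the 20 most abundant features and the chosen genes, that median was −0.37, a shift of 0.22, and 11.2% of the features were called in each direction. Against this background all 11 plastid-encoded photosynthesis features were called higher, with a median log2 fold of 2.48, and so were all 10 for plastid gene expression, with a median of 1.99. The medians were 3.22, 2.68, 2.48 and 1.46 by pool for the first list and 2.10, 2.28, 1.81 and 1.26 for the second.

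Of the 5 photosystem genes, 4 had the highest folds among the 23 plastid-encoded features. psbB, which encodes the core antenna subunit CP47 of photosystem II, reached 1559 CPM in rich and 187.2 CPM in marker-free cells, a log2 fold of 2.99. psaC, which carries iron-sulphur clusters of photosystem I, stood at 476 and 56.2 CPM (2.88). psbC, for the companion antenna subunit CP43, had 9357 CPM (8991 to 9735) and 1270 CPM (1150 to 1400), with log2 folds of 2.91, 3.40, 3.26 and 2.68 in pools 6, 11, 28 and 29. psbH, a small subunit of the same photosystem, stood at 1814 and 249.6 CPM (2.81). The gene of its reaction centre protein D1, psbA, had a lower log2 fold, 2.04, with 877 and 205.9 CPM, and 0.81 within pool 29.

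The other plastid photosynthesis genes had folds of 1.44 to 2.56. atpI, a membrane subunit of the ATP synthase, stood at 3331 and 590 CPM (2.48). The 5 genes of the NDH complex, which carries electrons around photosystem I, were ndhI (2.56), ndhE (2.48), ndhG (2.43), ndhH (2.34) and ndhF (1.44). The direction of some rested on few UMIs in a pool. In pool 28, ndhE had 1 UMI in rich and 0 in marker-free cells, and ndhH had 6 and 5. In pool 29, ndhE had 7 and 2. ndhF, with 728 CPM in rich and 262.1 CPM in marker-free cells, was the lowest of the list. Genes of the plastid RNA polymerase followed, with log2 folds of 2.19 for rpoC2 (5912 and 1286 CPM), 2.17 for rpoA, 1.99 for rpoC1 and 1.99 for rpoB (4341 and 1086 CPM).

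Genes of the plastid ribosome were higher by 1.61 to 2.01 on the log2 scale. They were rpl33 (2.01), rps18 (2.00), rpl14 (1.83), rps2 (1.74) and rps16 (1.61), and the initiation factor infA stood at 1.75. Outside both lists, cemA, for a protein of the plastid envelope, had a log2 fold of 2.56 with 8671 and 1460 CPM. clpP, a subunit of a protease, had 1.26, the smallest of the 23. The feature rps3, whose symbol is shared by a plastid and a mitochondrial gene, had 2.13, and ycf70, which the gene table does not list, had 2.71, and neither was counted among the 23. ATPA, whose symbol fits both a nuclear and a plastid gene and which was not counted either, lay in the other direction. It stood at 1891 CPM in rich and 3623 CPM in marker-free cells, a log2 fold of −0.93, with −0.99, −1.12, −0.99 and −0.81 in pools 6, 11, 28 and 29.

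**Figure D3:**
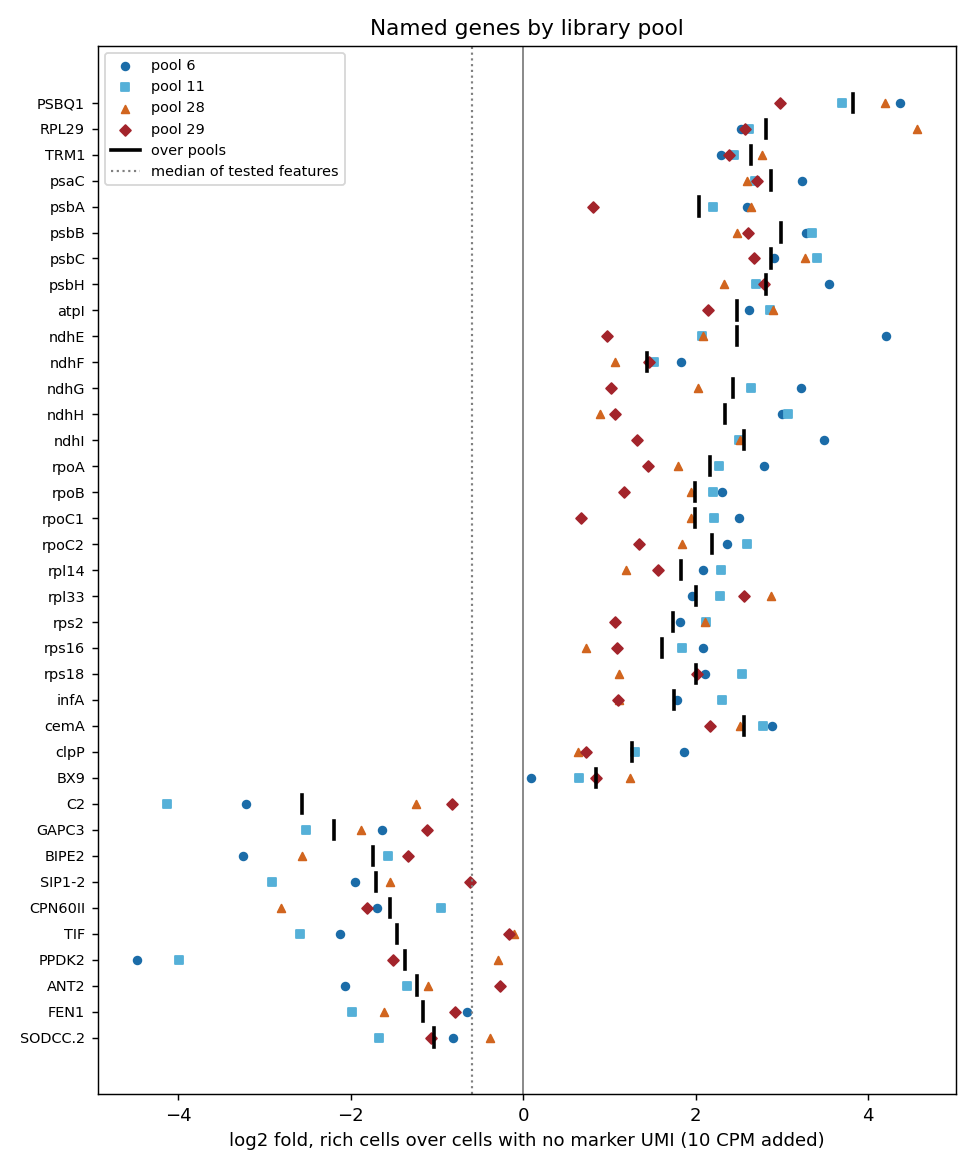
Log2 fold of named features between rich and marker-free cells, with 10 CPM added to both sides, over pools and within pools 6, 11, 28 and 29. The plastid photosynthesis features lie between 1.44 and 2.99 over pools, and the lower nuclear features reach −2.56 for C2.

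Plastid transcripts of the rich cells also differed in make-up. The photosynthesis features gave 36.2% (35.5 to 37.0%) of the UMIs of the 23 features in rich cells and 26.6% (25.3 to 28.1%) in marker-free cells. By pool the rich cells had 38.9%, 33.8%, 37.1% and 38.3%, and the marker-free cells 29.4%, 24.9%, 21.9% and 25.7%, in the order 6, 11, 28 and 29. The intervals did not overlap in any pool. The gene expression features gave 44.4% in rich cells and 53.1% in marker-free cells, and were the lower of the pair in rich cells of each pool. The remaining share, from cemA and clpP, was 19.4% and 20.3%. These shares are taken of the 23 features alone.

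**Figure D4:**
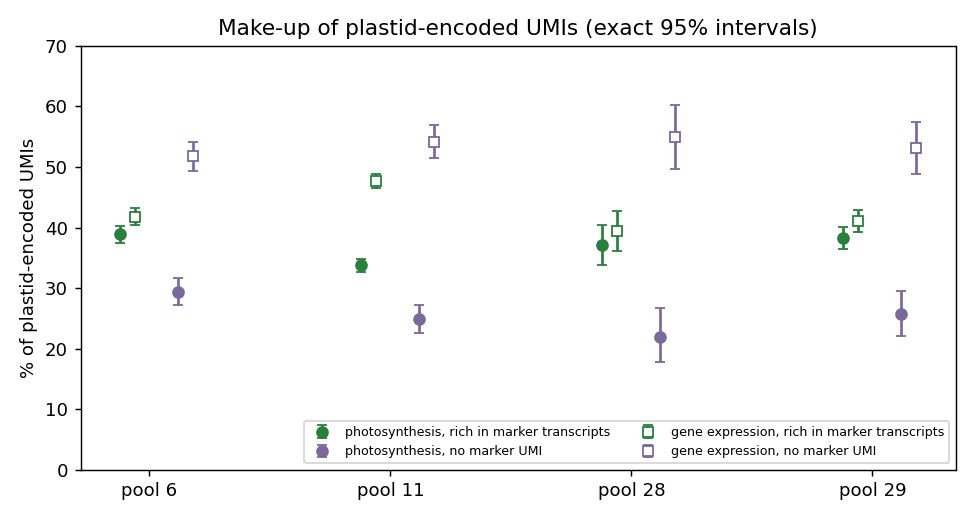
Shares of plastid-encoded UMIs that came from the photosynthesis features (filled symbols) and from the gene expression features (open symbols), in percent, in rich and marker-free cells of each pool, with exact 95% intervals as bars. For photosynthesis the rich cells lie at 33.8 to 38.9% and the marker-free cells at 21.9 to 29.4%. For gene expression they lie at 39.4 to 47.7% and at 51.8 to 55.0%.

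Nuclear photosynthesis genes outside the rule matched 4 features, and 2 of these had at least 20 UMIs. PSBQ1, a subunit of the oxygen-evolving complex of photosystem II, stood at 371, 398, 903 and 999 CPM in the rich cells of pools 6, 11, 28 and 29 and at 8.52, 21.3, 39.9 and 118.2 CPM in the marker-free cells. Over pools it stood at 663 CPM (568 to 769) against 37.4 CPM (19.3 to 65.4, 12 UMIs), a log2 fold of 3.83. It was above the marker-free level in each pool, with log2 folds of 4.36, 3.70, 4.19 and 2.98. PSBQ1 had a UMI in 57 of the 68 rich cells and in 9 marker-free cells (6.62%), at median depths of 3264.5 and 1620.5 UMIs. Cells thinned to 800 UMIs gave 32.3% and 2.48%, against 83.8% and 6.62% at full depth.

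FDX3, a ferredoxin best known from roots, did not share that pattern, with 99.1 CPM in rich and 102.97 CPM in marker-free cells (−0.05). RCA1, Rubisco activase, had 9 UMIs in rich cells and none in marker-free cells, where 3 counts would be 9.36 CPM, so its measured level was at least 3.66-fold higher. With the counting error of both sides the log2 ratio starts at 1.27. The UMIs of RCA1 came from pools 11, 28 and 29. FDX2, a leaf ferredoxin, had 6 UMIs against none, at least 2.44-fold higher on the same floor, with a log2 ratio that starts at 0.52 once counting error is included, and all 6 came from pools 28 and 29. The rich cells are not given a cell type here, because CAB1 and PSAH of the 3 endothecium markers chose them and the remaining one, RCA1, was seen in 8 cells.

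Some other nuclear features with a symbol were higher in rich cells. TRM1, a thioredoxin of the m type that acts in chloroplasts, had 29 UMIs against 3 (110.5 and 9.36 CPM, 2.64), a log2 ratio with a counting interval of 1.87 to 5.92, and was higher in each pool. RPL29, a ribosomal protein gene whose compartment the gene table does not give, stood at 213.4 against 21.8 CPM (2.81). TPT, which exports triose phosphate from the chloroplast and was picked after its values were seen, had 23 UMIs against none, at least 9.37-fold higher on that floor, with a log2 ratio from 2.81. Its UMIs came from pools 6, 11 and 29, with none in pool 28.

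A list of nuclear genes for chloroplast proteins was drawn after the symbols had been seen and therefore supports nothing. Its members with at least 20 UMIs that are described here had folds above 0 over pools, and of these TRM1 was called higher. FTRC, a subunit of ferredoxin-thioredoxin reductase, stood at 72.4 against 43.7 CPM (0.62). Its log2 folds were 0.82, 1.69, −2.32 and −0.05 in pools 6, 11, 28 and 29. WHY1, a DNA-binding protein of plastid nucleoids, stood at 49.6 against 37.4 CPM (0.33). Among members below 20 UMIs, the splicing factor CAF1 had 8 UMIs against 1 and CFM3 had 4 against 9. The members therefore did not all stand higher.

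Most features called higher had no name. Of them 28 carried a symbol, and 23 of these were the plastid features. The feature with the highest fold, Zm00001d039040, stood at 4364 against 118.6 CPM (5.09) and was seen in 67 of 68 rich cells and in 31 marker-free cells. Zm00001d018779 followed with 522 against 6.24 CPM (5.03), in 43 and 2 cells, and its 2 UMIs in marker-free cells give a counting interval of 4.51 to 9.45 for the log2 ratio. The log2 folds of the first of them ran from 4.37 to 5.63 in the 4 pools. The feature with the most UMIs in rich cells, also without a symbol, took 5.06% of their UMIs and 0.777% of those of marker-free cells. By pool its share was 7.89%, 6.58%, 3.54% and 2.53% in rich cells of pools 6, 11, 28 and 29, higher in the first 2 pools as the plastid share was, and 0.309 to 1.39% in marker-free cells.

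Of the 380 features called lower, 7 carried a symbol, and with the minimum of 20 UMIs for named genes BIPE2, CPN60II and FEN1 were added. C2, chalcone synthase, the entry enzyme of flavonoid synthesis, stood at 97.6, 90.9, 129.04 and 282.3 CPM in rich cells of pools 6, 11, 28 and 29 and at 988, 1750, 319 and 507 CPM in marker-free cells. It was lower in rich cells of each pool, with log2 folds of −3.21, −4.12, −1.24 and −0.82, and −2.56 over pools. The counting intervals of C2 overlapped in pool 28, with 4 against 16 UMIs, and in pool 29, with 26 against 30. Few cells carried this difference: 12 marker-free cells (8.82%, 4.64 to 14.9%) held at least 3 UMIs and 1000 CPM of C2, and they gave 92.9% of the C2 UMIs of marker-free cells. Of the rich cells, 2 of 68 (2.94%, 0.358 to 10.2%) passed that cut, with an overlapping interval, and of the intermediate cells 11 of 53 (20.8%). A UMI of C2 was found in 23.5% of rich and 22.1% of marker-free cells, at the different depths given above. The plastid-encoded share of the 2 rich cells lay between 1.29 and 3.84%. GAPC3, for a glyceraldehyde-3-phosphate dehydrogenase of the cytosol, had 125.8 against 608 CPM (−2.19) and was lower in each pool. In pool 29 it had 6 against 9 UMIs, with overlapping counting intervals. By the same cut, 0 of 68 rich cells were rich in GAPC3, for which the exact interval reaches 5.28%, against 10 marker-free cells (7.35%, 3.58 to 13.1%), which gave 81.0% of the GAPC3 UMIs of marker-free cells. Of the intermediate cells, 5 of 53 (9.43%) passed that cut. Summed, the intermediate cells stood at 508 CPM of GAPC3 and 1118 CPM of C2. A UMI of GAPC3 was found in 32.4% of rich and 29.4% of marker-free cells, again at different depths. In cells thinned to 800 UMIs, GAPC3 was found in 7.69% of rich and 15.7% of marker-free cells, and C2 in 10.8% and 16.5%.

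The other named lower features covered several roles. BIPE2, a chaperone of the endoplasmic reticulum, had −1.74, and SIP1-2, an aquaporin, had −1.70 with 194.4 against 655 CPM. CPN60II, a mitochondrial chaperonin, had −1.55, from 5 UMIs in rich and 24 in marker-free cells. TIF, a translation initiation factor, had −1.47 over pools, with −2.13, −2.58, −0.11 and −0.16 in pools 6, 11, 28 and 29. In pools 28 and 29 TIF was thus nearer 0 than the medians of all features with at least 20 UMIs (−0.27 and −0.29). PPDK2, pyruvate orthophosphate dikinase, had −1.36 over pools. It had no UMI in rich cells of pools 6 and 11, against 25 and 14 in marker-free cells, and log2 folds of −0.29 and −1.50 in pools 28 and 29. ANT2, the mitochondrial carrier of ADP and ATP, had −1.24 over pools and −0.27 in pool 29. The flap endonuclease gene FEN1 had −1.16, and the superoxide dismutase gene SODCC.2 had −1.03. The calls of 5 of these features ended under some alternatives, with folds as near to 0 as −0.88 for ANT2, −0.85 for CPN60II, −0.76 for FEN1, −0.74 for TIF and −0.69 for SODCC.2. Of features without a symbol, Zm00001d007187 had 0 UMIs in rich cells and 52 in marker-free cells (162.3 CPM), and Zm00001d003016 stood at 34.3 against 487 CPM (−3.49).

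The lists of other gene groups held few features each, beside a background of 15.6% called lower and 6.04% called higher at the same minimum of 20 UMIs. The median log2 fold of all features at that minimum was −0.53. The flavonoid list matched C2 alone and the list of endoplasmic reticulum folding BIPE2 alone. Of 7 cytoskeleton features none was called in either direction, with a median log2 fold of −0.41, and neither were the 2 chromatin features, with −0.62. Of 6 aquaporins 1 was called lower, near that background, with a median of −0.43, and of 2 antioxidant features 1, with −0.53. Of 3 glycolysis features 2 were called lower, GAPC3 and PPDK2, while GAPC2 stood at 595 against 630 CPM. Of 2 mitochondrial features 1 was called lower, with −1.01. Of the ribosomal protein features described here, RPL29 was called higher, while RPL17, RPS21 and RPS4 lay between −0.80 and −0.99.

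The aquaporin list changed sign between pools, with medians of −1.80 and −2.46 in pools 6 and 11 and of 0.65 and −0.19 in pools 28 and 29. Medians of all features with at least 20 UMIs were −0.83, −0.75, −0.27 and −0.29 in pools 6, 11, 28 and 29. TIP1-1, of the vacuolar membrane, stood at 58.6, 34.1, 839 and 1053 CPM in rich cells of pools 6, 11, 28 and 29 and at 161.8, 448, 518 and 1081 CPM in marker-free cells. Within rich cells, pools 28 and 29 were thus high and pools 6 and 11 low. PIP2-2, of the plasma membrane, had 19.5, 45.4, 193.6 and 543 CPM in rich cells, in the same order of pools.

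Markers of other anther cells gave few UMIs. The meiocyte list matched RAD51B alone, with 1 UMI in rich and 3 in marker-free cells, and the epidermis list matched CR4, with 3 and 6. The vascular list matched LBD6, with 1 and 15. No tapetum marker matched. The cell cycle genes CDC2, MAD2 and PCNA had 5 UMIs in rich and 30 in marker-free cells together, and none of them reached 20. These counts cannot tell which cell types the marker-free cells hold, and their part in the folds was not tested.

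Among rich cells, pools with a higher median level of the nuclear genes had a lower median plastid share. The levels of these genes had chosen the cells, so the comparison is a description. The rule's minimum of UMIs also asks for a higher CPM in shallow cells. Rich cells had medians of 5815, 4542, 1565 and 3616.5 UMIs in pools 6, 11, 28 and 29. How far the rule and depth shaped the difference between pools was not tested. For every 100 plastid-encoded UMIs there were 2.74, 4.16, 21.7 and 20.9 UMIs of the 3 chosen genes in pools 6, 11, 28 and 29. Per cell the ratio ran from 1.48 to 6.25 in pool 6 and from 1.65 to 7.56 in pool 11, against 6 to 100 in pool 28 and 9.33 to 42.9 in pool 29. The cells of pools 6 and 29 did not overlap. The labels give no difference between the pools besides the library index, so pool, anther and sorter cannot be told apart.

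Within a pool the relation was weak or ran the other way, as a description across cells that share a library. Spearman's rho between the level of the chosen genes and the plastid share was −0.05 over the 8 cells of pool 6 and 0.06 over the 19 of pool 11. It was 0.38 over the 17 of pool 28 and 0.68 over the 24 of pool 29. The levels of plastid photosynthesis and plastid gene expression features went together more, with 0.40, 0.51, 0.79 and 0.81. Both pairs share each cell's total as the divisor. The first pair also uses the levels by which the cells were chosen.

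**Figure D5:**
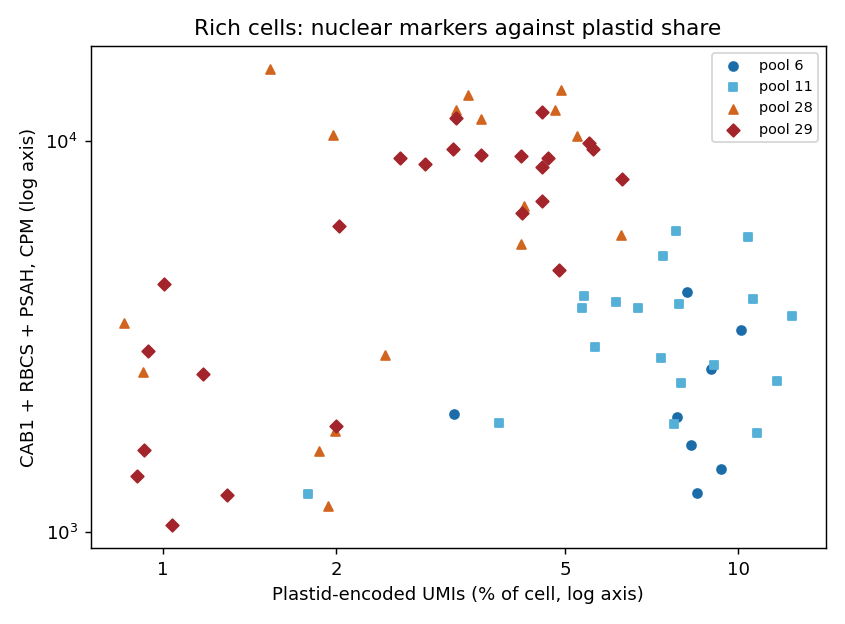
Summed level of CAB1, RBCS and PSAH in CPM (log axis) against the share of plastid-encoded UMIs in percent, with each point 1 rich cell and colours for the 4 pools. Pools 6 and 11 lie at high plastid shares (medians of 8.37 and 7.72%), and pools 28 and 29 at lower shares (3.23 and 3.21%) and higher marker levels.

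Rich cells spread their UMIs over fewer features at equal depth. Thinned to 800 UMIs, 65 rich cells held 333 to 694 features with a median of 546, and the marker-free cells held 357 to 713 with a median of 635. The ranges overlapped, and 3 rich and 15 marker-free cells were too shallow to enter. By pool the medians were 427.5, 441, 573 and 571 in rich and 631.5, 594, 636 and 668 in marker-free cells, lower in rich cells each time. At full depth the order was opposite, with medians of 1581 and 1193.5 features.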

How the data were processed

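The authors deposited UMI counts per feature and cell as whole numbers with no normalization. The submitters' processing notes name the aligner HISAT2 and the build B73 RefGen_v4, with no version, annotation or UMI counter. Of 17140 features, 155 carried a symbol and held 5.43% of the 800166 UMIs, and the others were left unnamed. All columns were used. Symbols were matched to a RefSeq gene table of another assembly, so no coordinates are given. Plastid-encoded features were those whose symbols match a single plastid gene, which left out ATPA, rps3 and ycf70.

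Of the 303 cells, 257 had at least 500 features, and of these 68 were rich, 136 marker-free and 53 intermediate. UMIs were summed over the cells of each kind and scaled to CPM. Features with fewer than 50 UMIs over both kinds (20 for lists and named genes) were given no call, and 206 of 2018 features were called higher. Doublets were not called. The scripts were checked on simulated counts. Python 3.11.15, numpy 2.4.6, pandas 2.3.3, scipy 1.17.1 and matplotlib 3.10.9 were used.

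The cells, lists and named genes were chosen with earlier results of these data known. Named were all plastid-encoded and nuclear photosynthesis features with at least 20 UMIs, the 10 symbols with the largest and the 10 with the smallest log2 fold that kept their direction in each pool, and 2 features without a symbol in each direction. 1 gene that this rule takes is not reported here. Others are named with a remark or as members of a list. The lists were nuclear photosynthesis, endothecium, meiocyte, tapetum, epidermis, vascular, flavonoid, aquaporin, cell cycle, glycolysis, cytoskeleton, mitochondrial, ribosomal protein, endoplasmic reticulum folding, antioxidant and chromatin genes. Alternatives covered the cell filter, the marker cut, depth, weighting, the total, the CPM added, the UMI minimum and each pool.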

Additional observations from a re-analysis of the deposited data

Results flagged for a closer look

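Of the 46 cells set aside for fewer than 500 features, 3 met the marker rule, which places a signal outside the cells compared. They held 616 to 755 UMIs each and 18 UMIs of CAB1, RBCS and PSAH together, at 3974 to 11799 CPM per cell. Their plastid-encoded share was 2.36 to 3.84%, and they held 6 PSBQ1 UMIs in all.

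The intermediate cells, which entered no comparison, held 15 PSBQ1 UMIs, above the 3 counts that a count of 0 allows. Their level was 76.3 CPM (42.7 to 125.8), between the marker-free cells at 37.4 CPM and the rich cells at 663 CPM, and its interval overlapped that of the marker-free cells.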

How the results depend on the processing

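Of the 22 settings tried, 3 were chosen after seeing the data, and each named feature was run under 17, in which no called one changed direction. The log2 ratio of the plastid share (2.23) was 2.31 with at least 1000 features per cell, 2.33 with a cut of 2000 CPM, 2.34 against the 87 marker-free cells as deep as the shallowest rich cell of their pool, 2.00 with cells weighing the same, 2.47 without the 20 most abundant features and 1.94 thinned to 800 UMIs. In the same order, the median of plastid photosynthesis features (2.48) was 2.65 with 2000 CPM, 2.60 with deep cells, 2.21, 2.74 and 2.25, and it was 2.61 with 1 CPM and 2.31 with 50 CPM added. That of plastid gene expression (1.99) was 1.87 with at least 300 features, 2.17 with deep cells, 1.62 with equal weights, 1.87 as the mean of pools, 2.23 without abundant features, 2.08 over nuclear totals, 1.82 with 50 CPM added and 1.62 thinned. The share of features called higher (10.2%) was 6.04% with at least 20 UMIs and 3.32% with every feature, or 357 and 568 features. That of lower features (18.8%, 380 features) was 15.6% and 8.28%, or 921 and 1415 features, 11.2% without abundant features and 10.2% with 50 CPM added. The ratio of features per cell (0.860) was 0.864 at 500 UMIs, 0.845 at 1500 and 1.32 unthinned. The causes were not tested.

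Leaving out each pool in turn gave 44 to 60 rich cells, share ratios of 2.00 to 2.49, medians of 2.20 to 2.87 and of 1.67 to 2.06 for the plastid lists, 11.8 to 13.6% of features called higher and 17.7% (without pool 6) to 33.4% (without pool 29) called lower. These calls needed the same direction in the remaining pools only, a weaker condition than in the main call. For CAB1, RBCS and PSAH in cells chosen by the other 2 genes, leaving out a pool gave 4.14 to 4.59, 5.94 to 6.37 and 4.27 to 4.61. Of the 45 named features, 44 kept their sign, and FDX3 ran from −0.70 to 0.30. The calls of ANT2, CPN60II, FEN1, TIF, SODCC.2 and clpP (0.996 with equal weights) ended under at least 1 setting. Depth limits the genes with few UMIs, such as RCA1 and FDX2, and the markers of other cell types. No paired analysis was possible because the cells form 1 group with no replicate pairs.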

Other observations

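Some features differed in direction between pools. Of the tested features, 9 were higher in rich cells by at least 0.5 on the log2 scale in both pools 28 and 29 and lower by at least 0.5 in both pools 6 and 11, and 0 showed the reverse. None of the 9 carried a symbol.

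BX9, a glucosyltransferase of benzoxazinoid defence compounds, stood at 457 CPM in rich cells and 249.6 CPM in marker-free cells, a log2 fold of 0.85 that was above 0 in each pool but below the size used for a call. SCR, a regulator of tissue layers known from roots and picked after its values were seen, had 12 UMIs in rich cells and 5 in marker-free cells, too few to place.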
